A study of Mus musculus with 2 samples.

Results

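The metabotropic glutamate receptor genes Grm2, Grm3, Grm4, Grm5, Grm6, Grm7 and Grm8 were described in total RNA from mouse hippocampus. They were matched by symbol and gene identifier, and make up 7 of the 55536 mouse genes in the tables. The tissue came from 2 male mice of the strain B6CASTF1/J, the F1 hybrid of C57BL/6J and CAST/EiJ, at 36 days of age. The mice form 1 group without a treatment, so no conditions were compared, and each gave 1 library from 300 ng of RNA with ERCC spike-in transcripts. The tissue label reads layer of hippocampus and does not say which part was taken. Both samples carry 1 donor identifier but separate biosamples and biological replicate numbers, and were taken as separate animals. The libraries held 28786216 expected counts (replicate 1) and 29755033 (replicate 2), that is, counts in which a read that matches several transcripts is divided among them.

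Metabotropic glutamate receptors are G protein-coupled receptors that work as dimers and bind glutamate in a large extracellular domain. Group I receptors, to which Grm5 belongs, couple to Gq, phospholipase C and calcium release, and sit mostly on the postsynaptic side. Group II (Grm2 and Grm3) and group III (Grm4, Grm6, Grm7 and Grm8) couple to Gi/o. Apart from Grm6, they are known mainly as presynaptic brakes on transmitter release. In several of these genes, splicing changes the intracellular carboxyl tail, which binds scaffold proteins such as Homer1 and Pick1.

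Annotated transcripts of 5 of the genes differ by a segment within or at the end of the coding sequence, and these segments are shown because most of the transcript results below turn on them. They were selected after the transcript values had been seen. Sequences are those of GENCODE M21 transcripts on the C57BL/6J-derived mm10 build, written 5′ to 3′ on the gene's strand. The other parental allele of the hybrid may differ from them. Capitals mark the alternative segment, and lower case marks up to 15 adjoining transcript bases on each side. In Grm5 the segment is an exon of 96 bases, or 32 codons, at chr7:88116193-88116288 on the plus strand, present in Grm5-204 and absent from Grm5-202.
Grm5 exon: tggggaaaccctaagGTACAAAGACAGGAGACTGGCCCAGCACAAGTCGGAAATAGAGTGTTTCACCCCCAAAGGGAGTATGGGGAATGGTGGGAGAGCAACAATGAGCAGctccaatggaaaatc
Grm7 has an exon of 92 bases at chr6:111501510-111501601 on the plus strand. Its first 68 bases are coding and are followed by a TAG stop codon, where the printed sequence ends.
Grm7 exon with stop: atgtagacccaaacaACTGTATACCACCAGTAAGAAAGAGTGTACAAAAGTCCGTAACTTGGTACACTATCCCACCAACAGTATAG
A second Grm7 exon, of 34 bases at chr6:110703442-110703475 on the plus strand, belongs to Grm7-204, a transcript annotated as a target of nonsense-mediated decay. The length is not a multiple of 3, and the shifted frame reaches a TAG stop codon 14 bases after the exon, which closes the printed sequence.
Grm7 early exon: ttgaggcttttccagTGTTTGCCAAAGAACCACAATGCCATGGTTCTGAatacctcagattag
In Grm8 an exon either stops early or runs on for 55 bases, at chr6:27285680-27285734 on the minus strand. Of these, 47 are coding and lead to a TAA stop codon, which ends the printed sequence.
Grm8 exon end: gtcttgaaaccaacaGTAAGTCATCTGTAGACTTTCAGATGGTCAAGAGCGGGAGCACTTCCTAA
Grm4 has a coding exon of 141 bases, or 47 codons, at chr17:27450125-27450265 on the minus strand, which Grm4-207 skips.
Grm4 exon: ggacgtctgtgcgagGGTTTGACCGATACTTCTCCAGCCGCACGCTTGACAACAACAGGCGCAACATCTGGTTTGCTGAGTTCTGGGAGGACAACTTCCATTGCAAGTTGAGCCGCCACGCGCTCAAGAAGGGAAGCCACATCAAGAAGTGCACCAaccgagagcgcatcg
In Grm2 the segment is 834 bases (278 codons) inside 1 exon, at chr9:106647271-106648104 on the minus strand, which Grm2-203 lacks. It begins with GT and ends with AG, the letters that bound most introns. Its first and last 30 bases are given, then the bases that Grm2-203 joins.
Grm2 segment start: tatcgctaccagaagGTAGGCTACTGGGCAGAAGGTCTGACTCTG
Grm2 segment end: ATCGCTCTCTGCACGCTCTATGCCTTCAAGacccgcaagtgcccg
Grm2-203 junction: tatcgctaccagaagacccgcaagtgcccg

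The hippocampus expressed 6 of the 7 receptor genes at 1 TPM or more in both libraries, where TPM is the deposited measure of relative level, corrected for transcript length. Their levels fell into a top gene, Grm5, a middle set of Grm7, Grm2 and Grm3, and a low pair, Grm4 and Grm8. No count was assigned to Grm6 in either library. For comparison, 14870 genes with an entry in every table reached 1 TPM in both libraries. In the authors' gene table, the counts of the receptors were whole and their deposited posterior standard deviation was 0, so none was divided with another gene there. In whole-tissue RNA, fewer cells of a type and less RNA per cell cannot be told apart.

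Grm5 encodes mGlu5, the group I receptor of this set, which signals through Gq. Its level was 108.78 TPM in replicate 1 and 101.28 TPM in replicate 2, from 11686 and 11537 counts, with a mean of 105 TPM ± 5.30 (SD, n = 2). The gene spans 550740 bases of chr7 (87584168 to 88134907, plus strand). Grm5 stood 3.53-fold above Grm7, the next gene by mean level, in replicate 1 and 3.27-fold in replicate 2, and the ranges of their levels did not overlap. Grm5 held 54.1% and 51.0% of the summed TPM of the 7 genes. The TPM scale covers all entries of a table, and scaled over protein-coding genes alone the Grm5 mean was 238.5 TPM, with every receptor raised by the same factor within a library.

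Among group II genes, Grm2, the receptor known from mossy fibre terminals of dentate granule cells, had 25.61 and 31.93 TPM in replicates 1 and 2. Grm3, which is known in both neurons and astrocytes, had 27.76 and 27.33 TPM, with a mean of 27.5 TPM ± 0.304 (SD, n = 2). Grm2 was the lower of the pair in replicate 1 and the higher in replicate 2, so their order did not hold between animals. The mean of Grm2 was 28.8 TPM ± 4.47 (SD, n = 2), an SD of 15.5% of the mean, the highest of the 6 expressed genes on this measure. Grm2 lies on chr9 (106643095 to 106656082) and Grm3 on chr5 (9485541 to 9725170), both on the minus strand.

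Group III genes covered the widest range. Grm7, a presynaptic receptor with low affinity for glutamate, had 30.82 and 30.98 TPM in replicates 1 and 2, the smallest spread of the 6 expressed genes, with an SD of 0.113 TPM. Its range overlapped that of Grm2. Grm4 had 4.35 and 3.80 TPM, and Grm8 had 3.87 and 3.38 TPM. Both are presynaptic receptors, and Grm4 is best known from granule cells of the cerebellum. The Grm4 and Grm8 ranges overlapped, although Grm4 was the higher by 1.12-fold within each library. Grm3, the next gene above them, was 6.38-fold and 7.19-fold over Grm4. On mm10, Grm7 spans chr6 from 110645581 to 111567230 on the plus strand. Grm8 lies on chr6 from 27275119 to 28135178 and Grm4 on chr17 from 27422387 to 27521403, both on the minus strand.

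Grm6, the receptor through which ON bipolar cells of the retina sense glutamate, lies on chr11 from 50850685 to 50866208, plus strand. A count of 0 allows up to 0.0449 TPM in replicate 1 and 0.0428 TPM in replicate 2, the level of 3 counts, by counting error alone. The upper bounds that the authors' table gives for its TPM, at a probability level that is not stated, were wider, at 0.153 and 0.147 TPM. The second transcript table, made separately from the same libraries, placed 1 read of replicate 1 and 0 of replicate 2 on it. That read fell on Grm6-202, a noncoding transcript. Of 6 marker genes of ON bipolar cells, including Trpm1 and Gpr179, all 6 were under 1 TPM in both libraries, with summed levels of 0.48 and 0.60 TPM. Of the markers of cerebellar granule cells, in which Grm4 is abundant, 3 of 3 were under 1 TPM, with sums of 0.23 and 0.39 TPM. Of all 55536 mouse genes, 14870 with an entry in every table reached 1 TPM in both libraries, so most genes did not. A link between these markers and the Grm6 or Grm4 level was not tested.

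**Figure D1:**
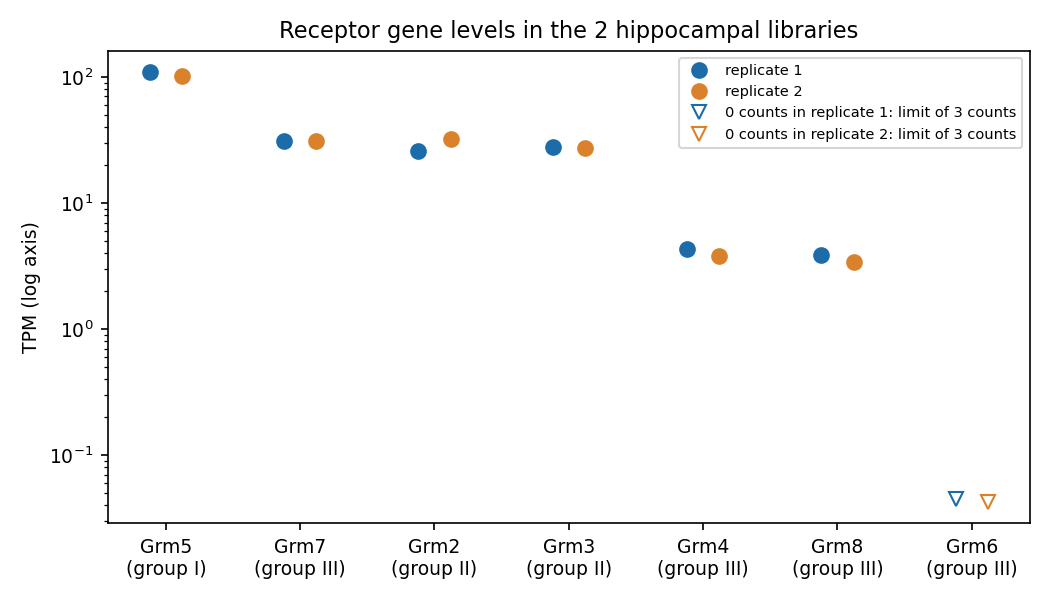
TPM of each receptor gene in replicate 1 (blue) and replicate 2 (orange) on a log axis, in order of the mean; open triangles mark the level of 3 counts for Grm6, which had 0 counts. Grm5 sits above 100 TPM in both libraries, Grm7, Grm2 and Grm3 lie between 25.61 and 31.93 TPM, and Grm4 and Grm8 lie between 3.38 and 4.35 TPM.

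Summed by coupling, group I (Grm5 alone) had 108.78 and 101.28 TPM, group II 53.37 and 59.26 TPM, and group III 39.04 and 38.16 TPM. These 3 ranges did not overlap. Group II made up 26.5% and 29.8% of the sum over the 7 genes, and group III 19.4% and 19.2%. The total over the 7 genes was 201.19 and 198.70 TPM, a mean of 199.9 TPM ± 1.76 (SD, n = 2).

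Between the animals, no receptor gene was called apart. The call needed an adjusted p under 0.05 and a difference of at least 1.5-fold in scaled counts, by an exact binomial test (two-sided) adjusted over 18270 genes by the Benjamini-Hochberg method. Of these genes, 344 (1.88%) were called. Among the 6 receptors tested, 0 met both conditions, 2 had an adjusted p under 0.05, and the same number had an unadjusted p under 0.05. Over all tested genes, 11.4% had an adjusted p under 0.05. The test compares the reads of 2 libraries with 1 animal each and has no replicate check.

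The genes with a low adjusted p were Grm2 and Grm5. Grm2 had 1819 counts in replicate 1 and 2319 in replicate 2. Its scaled count was 1.24-fold higher in replicate 2 (95% exact interval 1.16 to 1.32, adjusted p = 6.1e-10, exact binomial test). Grm5 was 1.04-fold higher in replicate 1 (interval 1.02 to 1.07, adjusted p = 0.017, exact binomial test). The Grm5 result depended on scaling, with an adjusted p of 0.11 under DESeq2 size factors and 0.585 under ERCC totals. The intervals of the other receptors included equal levels. Grm3 was at 1.00-fold in replicate 2 over replicate 1 (interval 0.937 to 1.07) from 1684 and 1739 counts, and Grm7 at 1.01-fold (0.955 to 1.07) from 2188 and 2282 counts. Grm4 was at 0.895-fold (0.772 to 1.04) from 381 and 351 counts, and Grm8 at 0.844-fold (0.700 to 1.02) from 251 and 218 counts. The low counts of this pair give the widest intervals.

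Values of cell type markers are given beside these results. All 5 dentate granule cell markers had a higher scaled count in replicate 2, with a median log2 ratio of 0.31. Their summed levels were 145.01 and 172.44 TPM. Over all tested genes the median log2 ratio was -0.0025. Prox1, the transcription factor that marks granule cells, went from 32.94 to 45.11 TPM (log2 ratio 0.49). Rfx3 had a log2 ratio of 0.29 and Stxbp6 one of 0.31, beside 0.31 for Grm2. In TPM, however, Stxbp6 was not higher in replicate 2, at 31.17 and 30.64 in replicates 1 and 2. Dsp, at 0.68, was the 1 of 5 called apart, where 1.88% of all tested genes were called. All 4 CA1 markers had a lower scaled count in replicate 2, with a median log2 ratio of -0.24 and sums of 254.11 and 211.89 TPM, and none was called apart. Markers of the choroid plexus, a tissue that adjoins the hippocampus, summed to 0.59 TPM in replicate 1 and 6.07 TPM in replicate 2. All 5 of them (Folr1, Clic6, Slc4a5, Aqp1 and F5) were called apart, beside 1.88% of all tested genes. Their counts in replicate 1 were low, from 2 for Slc4a5 to 14 for F5. The marker lists were chosen with earlier results of these data known. Thalamus markers had a median log2 ratio of 0.22, with 3 of 4 higher in replicate 2, and interneuron markers one of -0.15, with 0 of 6 higher. CA3 markers had a median of 0.08, with 3 of 4 higher. The part of the marker values in the Grm2 and Grm5 results was not tested.

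**Figure D2:**
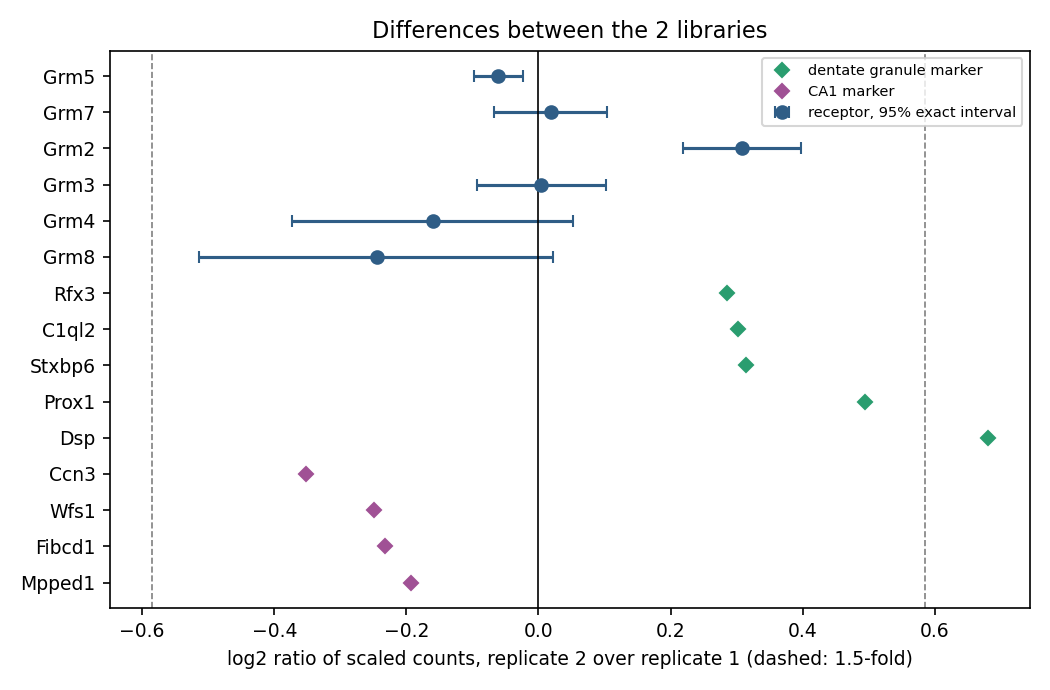
Log2 ratio of scaled counts, replicate 2 over replicate 1, for the 6 expressed receptor genes (circles with 95% exact intervals) and for markers of dentate granule cells and CA1 (diamonds); dashed lines mark 1.5-fold. Grm2 is at 0.31, the dentate markers run from 0.29 to 0.68, and CA1 markers run from -0.35 to -0.19. The marker lists were chosen with earlier results of these data known, and a link to Grm2 was not tested.

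All markers of CA3 (4 genes), interneurons (6), astrocytes (5), oligodendrocytes (3), their precursors (3), microglia (3) and thalamus (4) reached 1 TPM in both libraries. None of them was called apart. Since 14870 genes reached this level, it does not tell which tissue was taken. Oligodendrocyte markers had a median log2 ratio of -0.09, with 0 of 3 higher in replicate 2. Precursor markers had one of -0.13 and microglia markers one of -0.02, each with 1 of 3 higher. All 5 astrocyte markers had a higher scaled count in replicate 2, with a median log2 ratio of 0.05, beside 0.0043 for Grm3. Their summed level was 1419.40 and 1419.63 TPM. The thalamus sum was 26.03 and 28.71 TPM.

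More of the coding Grm5 RNA lacked the tail exon than held it. Grm5-204, the form with the 32-codon exon (1203 codons, known as mGlu5b), had 36.54 and 30.95 TPM in replicates 1 and 2. Grm5-202, the form without it (1171 codons, known as mGlu5a), had 48.42 and 47.45 TPM. The exon was thus in 43.0% and 39.5% of coding Grm5 transcripts by TPM, a mean of 41.2% ± 2.50 (SD, n = 2). The second transcript table gave 47.2% and 44.9%. All 4 values were under 50%. The values of Grm5-202 lay just above their own deposited bounds, 45.39 to 48.34 TPM in replicate 1 and 44.63 to 47.37 TPM in replicate 2. The models differ elsewhere too, since Grm5-202 has 3643 bases that Grm5-204 lacks, mostly at the 3′ end. This holds for each pair compared here, so that a share depends on how the authors' models assigned reads outside the segment. The tables print no interval for a share.

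For Grm7, the 92-base exon was the less frequent form as well. Grm7-202, which skips it and ends after 915 codons (known as mGlu7a), had 15.63 and 15.54 TPM. Grm7-201, which has it and ends after 922 codons (known as mGlu7b), had 10.98 and 9.39 TPM. The exon was in 41.3% and 37.7% of the pair in the first table, and in 46.6% and 44.6% in the second. The deposited bounds of Grm7-202 and Grm7-201 did not overlap in either library, at 13.6 to 16.7 against 8.46 to 12.5 TPM in replicate 1 and 13.6 to 16.7 against 6.98 to 10.97 TPM in replicate 2.

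The decay-annotated transcript Grm7-204 stood at 2.05 TPM in replicate 1, against 3.11 TPM in replicate 2. Against the full-length coding forms, Grm7-204, which holds the 34-base exon, made up 7.15% and 11.1% of transcripts. Outside this exon, Grm7-204 has 1192 bases that Grm7-202 lacks, nearly all in its last exon of 1438 bases. Reads there also enter the share, so it does not measure the 34-base exon alone. The second table, made from the same libraries, gave nearly equal shares, 6.93% and 10.8%, so replicate 2 was the higher in both tables. The bounds of Grm7-204 in the libraries overlapped (1.49 to 2.64 and 2.41 to 3.73 TPM).

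Grm2 transcripts were divided between the full form and the form without the 834-base segment. Grm2-201, which keeps it and encodes 872 codons, had 14.84 and 17.35 TPM. Grm2-203, with 594 codons, had 9.77 and 13.34 TPM from 404 and 579 counts. The segment was absent from 39.7% and 43.5% of the pair in the first table and from 47.3% and 51.5% in the second. Grm2-203 was the leading Grm2 transcript in replicate 2 of the second table, with 26.29 against 24.76 TPM, and Grm2-201 led in the other 3 cases. Outside the segment, Grm2-201 has 1768 bases that Grm2-203 lacks. In the plot of exon models these are seen as the long 3′ end. Both transcripts had more TPM in replicate 2, as had the gene.

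**Figure D3:**
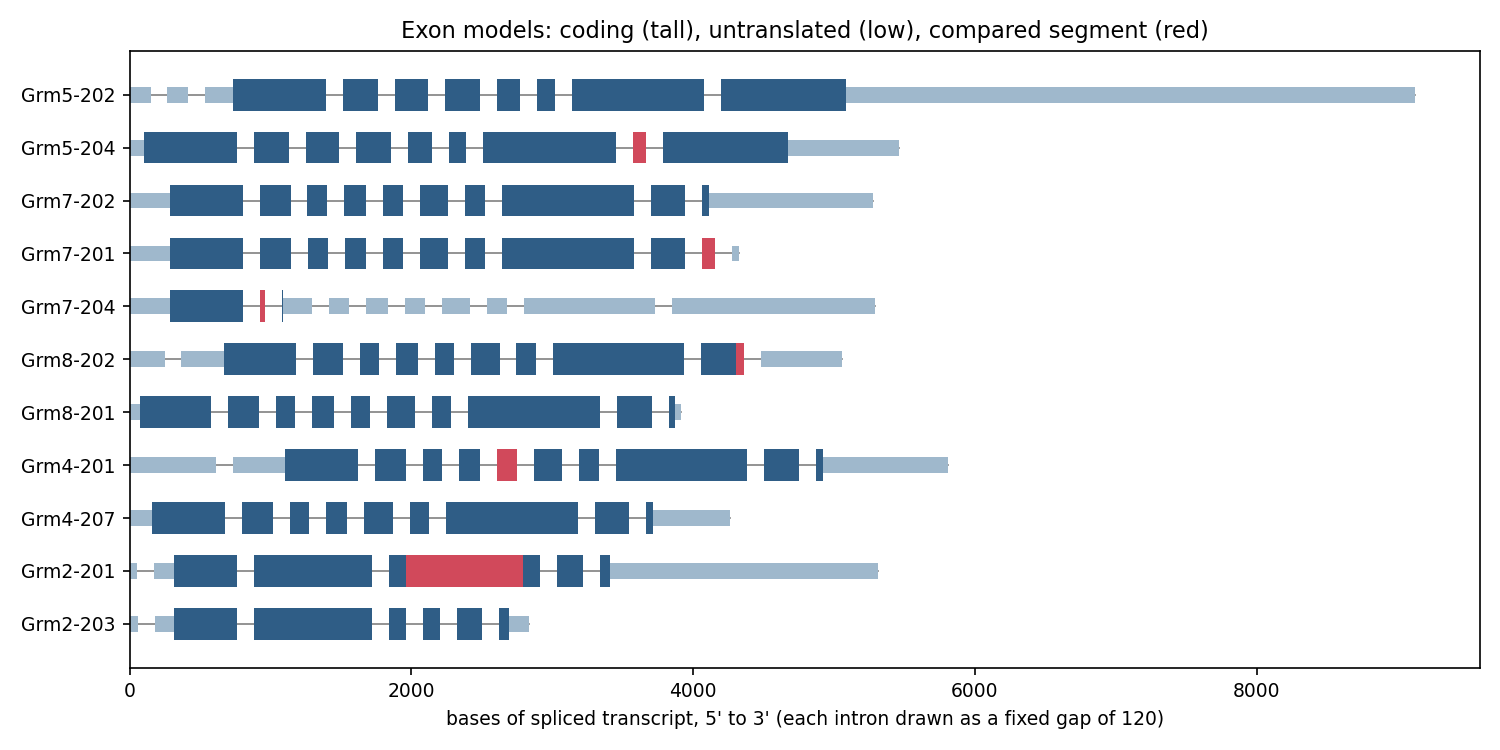
Exon models of the compared transcripts, 5′ to 3′, to scale in bases, with each intron drawn as a fixed gap; tall boxes are coding, low boxes untranslated, and red marks the compared segment. The pairs differ in their untranslated ends as well as in the red segment, and Grm5-202 and Grm2-201 have long 3′ ends that their partners lack.

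For Grm8 and Grm4, few reads stood behind the shares. The extended Grm8 exon end was in 92.7% of full-length coding transcripts in replicate 1 and 71.4% in replicate 2, and in 82.4% and 63.6% in the second table. Both the extended and the short form encode 908 codons, with different ends. The short form, Grm8-201, had 11.2 and 39.3 expected counts, with deposited bounds of 0.0174 to 0.684 and 0.183 to 1.21 TPM, which overlapped. The extended form was the larger in all 4 cases.

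Grm4-201 (912 codons) led Grm4 in both libraries with 3.53 and 3.58 TPM. Grm4-207 (865 codons), which skips the 141-base exon, had 0.82 TPM from 54.1 counts in replicate 1 and was listed at 0 in replicate 2. The second table gave it 1.72 and 0.609 TPM. The exon was in 81.1% and 100% of coding transcripts in the first table, and in 75.2% and 89.3% in the second. The value for Grm4-201 in replicate 2, 3.58 TPM, lay above its own deposited bounds of 2.48 to 3.48 TPM. The skipped form was thus listed lower in replicate 2 in both tables. Its deposited bounds overlapped between the libraries, with upper bounds of 1.27 and 0.674 TPM. Grm3 has 1 annotated transcript, Grm3-201, with 879 codons.

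**Figure D4:**
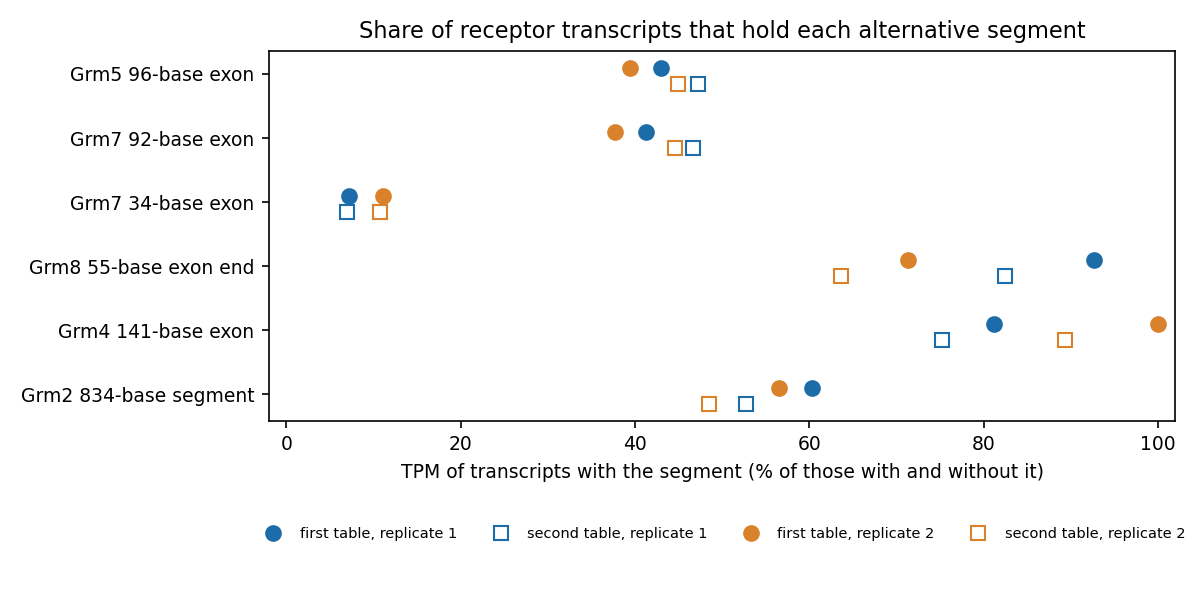
Share of transcripts that hold each alternative segment, as a percent of the TPM of transcripts with and without it, for each library and table. The Grm5 and Grm7 tail exons lie between 37.7% and 47.2%, the Grm2 segment between 48.5% and 60.3%, and Grm8 and Grm4 show the widest gaps between libraries.

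Protein-coding transcripts led all 6 expressed receptor genes in the first table, and 5 of 6 in the second. The exception was Grm5, in which the second table put Grm5-205 first, a noncoding transcript of 551 bases. It had 13.78 and 13.66 TPM in the first table against 79.8 and 73.2 TPM in the second. The counts differed less, 128 and 133 against 260 and 241. The effective length by which a count is divided was 452 bases in the first table, and 216 and 213 in the second. Coding transcripts held 78.1% and 77.4% of Grm5 TPM in the first table, and 54.9% and 55.6% in the second.

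Gene TPM was higher in the second table for most genes, with a median of 1.66-fold in replicate 1 and 1.70-fold in replicate 2. At least 1.5-fold in both libraries was reached by 74.5% of 14870 genes, and by 5 of the 6 expressed receptors. Grm5 differed by 2.23-fold and 2.24-fold, and Grm7 by 1.76-fold and 1.97-fold. Grm8 differed by 1.74-fold and 1.63-fold, Grm4 by 1.66-fold and 1.68-fold, and Grm2 by 1.55-fold and 1.61-fold. Grm3 differed by 1.49-fold and 1.51-fold and was the receptor below the threshold in replicate 1. Relative to the median shift, 0 of the 6 reached 1.5-fold in both libraries, beside 3.84% of all genes, and Grm5 was at 1.34-fold and 1.32-fold. Over coding transcripts of at least 1000 bases, Grm5 differed by 1.57-fold and 1.61-fold and Grm7 by 1.54-fold and 1.61-fold. Grm5 ranked first and Grm6 last in both tables, while orders within the middle set did not all hold. In replicate 2, Grm2 was above Grm7 in the first table (31.93 against 30.98 TPM) and below it in the second (51.4 against 61.1 TPM). Grm3 was above Grm2 in replicate 1 of both tables.

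**Figure D5:**
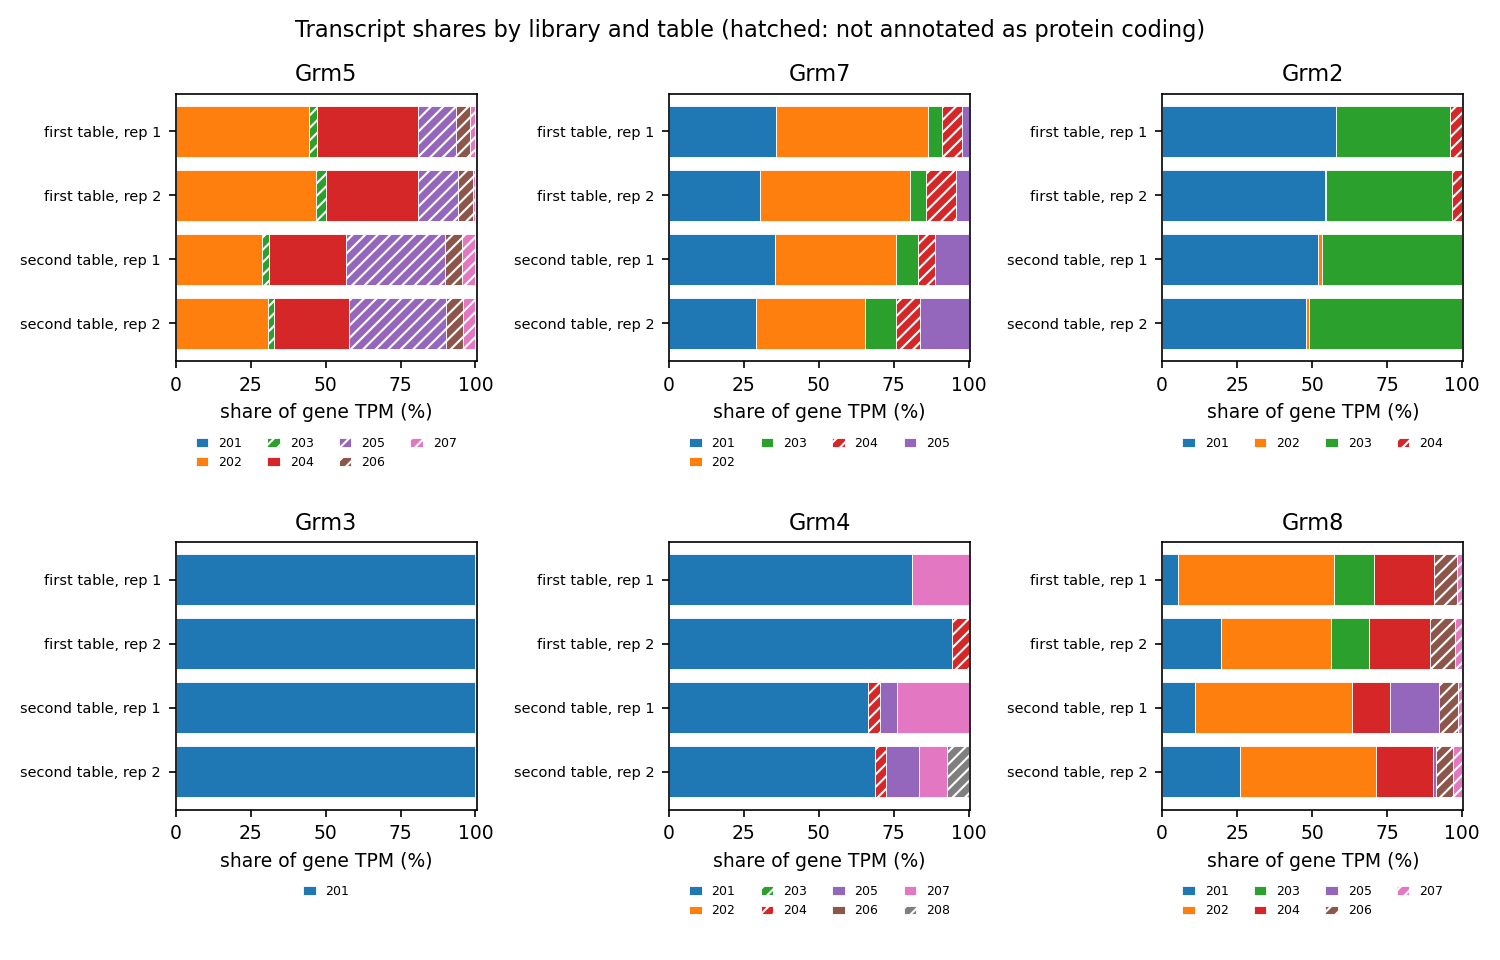
Share of each annotated transcript in the TPM of its gene (%) for both libraries and both tables; hatched bars are transcripts not annotated as protein coding. Grm5-205 takes 12.67% and 13.49% in the first table and 32.9% and 32.3% in the second, and Grm3 has a single transcript.

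The strand setting is not given, so reads of a receptor gene and of a gene on its opposite strand may not have been told apart. The antisense genes at Grm2 (Gm28111) and Grm6 (Gm12660) had 0 counts in both libraries. Gm20387, antisense to the first exon of Grm7, had 39 and 32 counts beside 2188 and 2282 for Grm7. Inside introns of Grm5 lie 5 genes of unverified class on the same strand, of which Gm44846 had the most counts, 221 and 273. Another of them, Gm44848, had 38 and 34 counts, but 190.8 and 183.9 in the second transcript table. The Grm5 counts in that table, 12976.1 and 12670.1, were not whole, so they may include reads divided with another gene.

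The coding sequences were more alike within groups II and III than across groups. Grm5, the only group I gene here, had no pair within its group. Aligned end to end, 1 model per gene, pairs within a group were identical at 68.2% to 73.0% of aligned bases (7 pairs), and pairs across groups at 60.7% to 65.3% (14 pairs). Grm4 and Grm6 were the closest pair at 73.0%.

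The listed genes that carry the receptors' signals were nearly all present. Of 32 partner genes, 29 reached 1 TPM in both libraries. Of all 55536 mouse genes, 14870 with an entry in every table did so. Among the 31 partner genes tested, 0 were called apart, beside 1.88% of all genes. An adjusted p under 0.05 (exact binomial test) at less than 1.5-fold was found for several, beside 11.4% of all tested genes under 0.05. Of these, Ncdn, Homer1 and Elfn2 were higher in replicate 2, and Gnao1, Gnai1, Itpr1 and Kcnj9 in replicate 1. The median log2 ratio of the 31 was -0.0052, against -0.0025 over all tested genes. On the Gq side used by Grm5, 8 of 10 genes reached 1 TPM. The highest were Itpr1, the receptor for inositol trisphosphate on calcium stores, at 123.99 and 117.27 TPM, then Gnaq, the Gq alpha subunit, at 81.70 and 84.60 TPM, and Plcb1, a phospholipase C, at 61.73 and 60.07 TPM. Plcb2 and Itpr3 crossed 1 TPM in replicate 1 alone, although Itpr3 had similar counts, 139 and 131. In the second table both genes were above 1 TPM in both libraries, Plcb2 at 1.65 and 1.33 TPM and Itpr3 at 1.21 and 1.11 TPM.

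On the Gi/o side used by groups II and III, 8 of 9 genes reached 1 TPM. Gnao1, the Go alpha subunit, had 276.11 and 253.55 TPM. Of the Gi alpha subunits, Gnai2 had 87.24 and 77.10 TPM, and Gnai1 had 69.49 and 62.72 TPM. Kcnj5, a subunit of G protein-gated potassium channels, was the gene under 1 TPM in both libraries, at 0.06 and 0.16 TPM. The other channel subunits listed, Kcnj3, Kcnj6 and Kcnj9, lay between 25.15 and 53.55 TPM.

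All 13 scaffolds and regulators reached 1 TPM. Ncdn, encoding neurochondrin, which binds mGlu5, had 708.66 and 732.16 TPM. Elfn2, a synaptic adhesion protein that binds group III receptors, had 79.75 and 81.69 TPM, and Grk2, a kinase that desensitises receptors, had 76.65 and 82.37 TPM. Homer1, the postsynaptic scaffold of mGlu5, had 77.52 and 79.36 TPM, and Pick1, which binds the tail of mGlu7a, had 18.50 and 19.12 TPM. Homer1, Pick1, Plcb2, Itpr3 and the channel genes Kcnj3, Kcnj6 and Kcnj9 were chosen for naming after their values were seen.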

How the data were processed

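Total RNA-seq of 2 hippocampal libraries was used, 1 per animal. The authors deposited a gene table and a first transcript table with expected counts, TPM, posterior standard deviations and transcript shares in percent (columns as RSEM writes them, per the file headers), and a second transcript table with estimated counts and TPM (columns as kallisto writes them, per the file headers). Per the description deposited with the files, the authors used build mm10 and GENCODE M21. For the aligner, program versions and strand setting the entry is: not given in the sources used here.

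Expected counts were rounded and scaled by TMM (edgeR 4.0.16, R 4.3.3). An exact two-sided binomial test (scipy 1.17.1) with Benjamini-Hochberg adjustment covered 18270 genes with a mean count of at least 10. Folds add 0.5 to counts, and table ratios add 0.01 TPM. Intervals are exact 95% Clopper-Pearson and, like the limit of 3 counts, cover counting error alone, as reads lacking molecular identifiers need not be independent. The binomial test was tried on simulated counts that varied by counting error alone, which does not check calls between animals. Of partner lists, the 3 highest by mean TPM, genes called apart and genes under 1 TPM were named; marker genes were named only beside a receptor result. No genes of like pattern were sought, since 2 libraries give none. Members, lists and segments were chosen with earlier results of these data known. Alternatives were other scalings, filters, pseudocounts, thresholds, the second table and each library alone.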

Additional observations from a re-analysis of the deposited data

How the results depend on the processing

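Of the counts that answer each comparison, 26 of 29 alternative values stayed within 1.5 times the reported one. Among alternative values for single genes and segments, 68 were labelled the same. Another 16, all mean levels or segment shares, moved by more than the SD of the 2 libraries. For log2 ratios, 2 values reversed direction and 2 no longer had an adjusted p under 0.05. The number of receptors with an adjusted p under 0.05 went from 2 to 1 under DESeq2 size factors and to 1 under ERCC totals, since Grm5 no longer passed. The number of receptors at least 1.5-fold higher in the second table went from 5 to 0 when taken above the median shift and to 4 over coding transcripts of at least 1000 bases, both alternatives chosen after seeing the data. The log2 ratio of Grm3, 0.0043, became -0.0016 under total gene counts and -0.0093 in the second table. Receptors at 1 TPM or more stayed at 6 and receptors called apart at 0 under all alternatives run. Partner genes at 1 TPM or more were 29, with 31 at a threshold of 0.5 TPM, 29 at 5 TPM and 31 in the second table. With 12541 genes of at least 100 counts tested, 112 were called apart rather than 344. No paired analysis was possible because there is 1 group. Leaving out either library ends every test between them. An animal's biology and its dissection cannot be told apart with 1 library each. Depth limits Grm8, Grm4 and Grm6 most.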
